A study of Mus musculus with 2 samples.

Results

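The miR-15/16 family was examined in exosomes, the small vesicles that cells shed, from the medium of a mouse lung tumour line, Lewis lung carcinoma (LLC). Its 7 members were taken by exact name from a mouse miRNA array that carried 1881 miRNAs: mmu-miR-15a-5p, mmu-miR-15b-5p, mmu-miR-16-5p, mmu-miR-195a-5p, mmu-miR-322-5p, mmu-miR-497a-5p and mmu-miR-503-5p (written below without the species prefix). The cells stood in medium without serum and with cisplatin at 5 µM, a drug that forms platinum crosslinks in DNA, and their medium was collected after 24 h. The data formed 1 group of 2 samples from independent experiments, and the RNA of each was hybridised to its own one-colour array (array 1 and array 2). All samples came from cisplatin-treated cells of this line, and no untreated group was analysed here, so the values describe what the exosomes held and not a response to the drug. With 2 arrays no p-values were computed, and the number of arrays limits the precision of every value.

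A miRNA guides a repressor complex to mRNAs, mainly through its seed, the bases near its 5′ end that pair with the target. The miR-15/16 family is known for restraining the cell cycle and survival, through mRNAs such as those of the D-type and E-type cyclins, Chek1 and Bcl2, and its human 15a/16-1 locus is often deleted in chronic lymphocytic leukaemia. In mouse the pair of miR-195a and miR-497a is known from heart muscle, where miR-195 rises after birth, and miR-322, the mouse counterpart of human miR-424, is made together with miR-503 from the X chromosome.

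The mature sequences are shown because the family is defined by them and because the members that were not detected resemble members that were. All 7 members matched RefSeq entries (build GRCm38.p6). They are written 5′ to 3′ with the seed, bases 2 to 8, in capitals.
miR-15a-5p: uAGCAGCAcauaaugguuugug
miR-15b-5p: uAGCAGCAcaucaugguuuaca
miR-16-5p: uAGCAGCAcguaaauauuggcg
miR-195a-5p: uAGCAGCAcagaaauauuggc
miR-322-5p: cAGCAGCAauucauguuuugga
miR-497a-5p: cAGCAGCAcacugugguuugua
miR-503-5p: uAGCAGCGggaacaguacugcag
The seed AGCAGCA was common to 6 members, and miR-503-5p had AGCAGCG. Of 1679 distinct mature mouse names in the sequence table, 10 carried AGCAGCA at these bases (0.596%), and miR-503-5p was the only one with AGCAGCG. Beyond the seed the members diverged. miR-16-5p and miR-195a-5p were the closest pair, identical at 19 of 21 compared bases; counted from the 5′ end, they differed by G10A and U11G, with the base of miR-16-5p first. miR-15a-5p and miR-15b-5p were identical at 18 of 22 bases, whereas miR-15a-5p and miR-503-5p were identical at 11 of 22.

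The members are encoded at 4 loci, each with a pair of hairpins. miR-15a-5p (chr14:61632075-61632096, minus strand) and one copy of miR-16-5p (chr14:61631936-61631957, minus strand) lie 117 bases apart within the bounds of Dleu2, a long noncoding RNA gene. miR-15b-5p (chr3:69009775-69009796, plus strand) and the other copy of miR-16-5p (chr3:69009918-69009939, plus strand) lie 121 bases apart within Smc4, which encodes a condensin subunit. miR-503-5p (chrX:53054027-53054049, minus strand) and miR-322-5p (chrX:53054306-53054327, minus strand) lie 256 bases apart within the long noncoding RNA gene C430049B03Rik. miR-497a-5p (chr11:70234730-70234751, plus strand) and miR-195a-5p (chr11:70235062-70235082, plus strand) lie 310 bases apart, and the hairpin of miR-497b overlaps the former on the opposite strand. Whether these positions are exonic or intronic was not analysed here. Both copies of miR-16-5p have the same mature sequence, so its signal cannot be assigned to a locus.

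In exosome RNA the members of 3 of the 4 loci were detected on at least 1 array, and the 5p arms encoded on chromosome 11 on neither. miR-15a-5p, miR-15b-5p, miR-16-5p and miR-322-5p were detected on both arrays, miR-503-5p on array 1 only, and miR-195a-5p and miR-497a-5p on neither. A miRNA counted as detected when the total of at least 1 of its probes exceeded 3 times the error listed for it, the scanner software's own rule. By this rule 4 of the 7 members (57.1%) were detected on both arrays, against 10.7% of all 1881 miRNAs. On array 1, whatever array 2 gave, 5 members (71.4%) passed, against 16.6% of all miRNAs, and with every probe required on both arrays 3 members (42.9%) passed, against 6.17%. The share of all miRNAs was 5.9% for detection on array 1 only and 83.4% for detection on neither array. Each member had 2 probes, and of the 14 probes 7 were detected on both arrays. The share over all probes of the array was not computed, so this count has no background beside it. No sample without these vesicles was analysed here, and 1000 negative-control spots on each array serve as the background: their mean intensity was 0.472 with an SD of 2.36 on array 1 and 1.37 with an SD of 2.81 on array 2.

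miR-15b-5p gave a clear signal at both probes. Probe A_54_P1006 had a mean processed intensity of 214 ± 7.74 (SD over 14 spots) on array 1 and 57.1 ± 2.81 (SD over 15 spots) on array 2. Probe A_54_P1005 had 67.5 ± 5.09 (SD over 14 spots) and 17.6 ± 3.35 (SD over 15 spots). The first probe was thus brighter than the second by 3.16-fold on array 1 and 3.24-fold on array 2, although both report the same miRNA. Spots are repeats of a probe within an array, so these SDs do not measure the spread between experiments. Because brightness depends on the probe, these signals do not rank miRNAs by amount.

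The signals of miR-15a-5p and miR-16-5p stood clear of the negative controls on array 1 and lay closer to them on array 2. The probes of miR-15a-5p had means of 44.7 ± 4.26 and 53.0 ± 6.44 (SD over 15 spots) on array 1 and of 14.3 ± 3.23 and 15 ± 4.17 on array 2. All 30 spots were well above background on array 1, by the scanner's flag, and 14 of 30 on array 2. miR-16-5p, which is found in most tissues and is often used as a reference, had probe means of 21.8 ± 4.39 and 52.0 ± 4.07 (SD over 15 spots) on array 1. On array 2 the means were 7.92 ± 2.55 (SD over 15 spots) and 16 ± 1.88 (SD over 12 spots). There the dimmer probe reached only 2.62 times its error, so miR-16-5p was detected on array 2 through 1 of its 2 probes, at 4.81 times its error.

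On the X chromosome, miR-322-5p gave a signal on both arrays and its partner miR-503-5p on array 1 alone. The probes of miR-322-5p had means of 73.8 ± 5.80 and 119 ± 5.46 (SD over 15 spots) on array 1 and of 19.9 ± 2.79 and 29.2 ± 3.32 on array 2, with all 30 spots well above background on each. For miR-503-5p, probe A_54_P2843 had a mean of 14.6 ± 2.24 (SD over 12 spots) on array 1 and of 3.32 ± 2.79 (SD over 15 spots) on array 2. The other probe, A_54_P2842, had means of 1.57 and -1.25, within the range of the negative controls. Detection of miR-503-5p therefore rested on 1 probe of 1 array, at 4.63 times its error. Of that probe's 15 spots, 3 were left out as outliers on array 1, and 7 of the remaining 12 were well above background.

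The chromosome 11 pair stayed below the detection limit, near the negative controls. The probes of miR-195a-5p had means of 0.725 ± 1.97 and 2.84 ± 3.0 (SD over 15 spots) on array 1 and of -1.45 ± 2.42 and 0.563 ± 3.20 on array 2. Those of miR-497a-5p had 0.454 ± 2.28 and 1.72 ± 2.22 on array 1 and -0.760 ± 3.02 and 1.28 ± 2.68 on array 2. The highest of these means, 2.84 for miR-195a-5p on array 1, lay above the control mean of 0.472, whose SD of 2.36 is over single spots. For both miRNAs 0 spots were well above background on either array, and the highest probe total was 1.00455 times its error. The probes of miR-195a-5p thus stayed near background on the same arrays on which miR-16-5p, which differs from it at 2 of 21 compared bases, was detected. Probe sequences were not available, so where these bases fall in the probes is not known. The result for the chromosome 11 pair is a bound and not an absence. On array 1, 3 times the error listed for the 4 probes of this pair was 1.78 to 1.80, and their totals were 0.0962 to 0.601. Listed errors rise with the signal, so detection needed somewhat more than this limit.

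**Figure D1:**
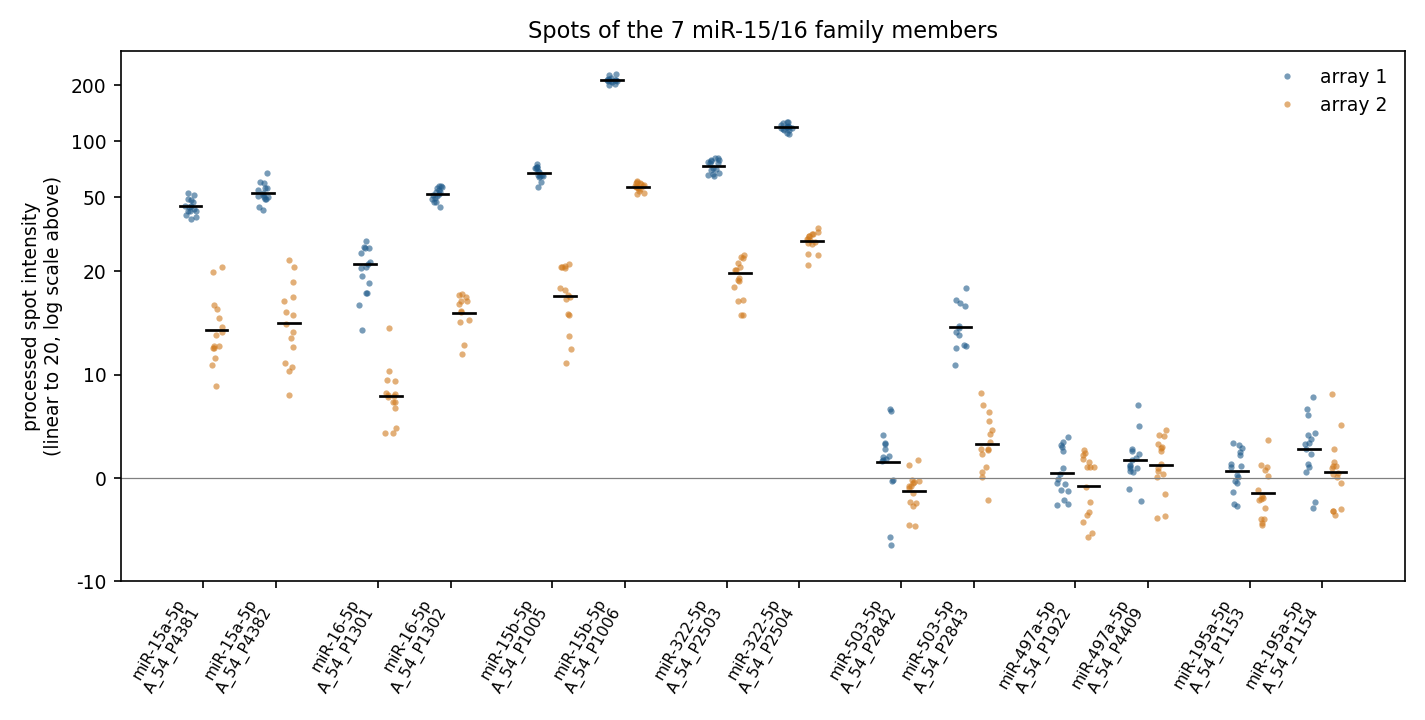
Processed intensity of each spot (y axis, linear up to 20 and logarithmic above, arbitrary scanner units) for the 2 probes of each family member on array 1 (blue) and array 2 (orange), with population outliers left out and a black bar at each mean. The spots of miR-15a-5p, miR-16-5p, miR-15b-5p and miR-322-5p lie above 0 and are brighter on array 1. Those of miR-497a-5p and miR-195a-5p lie near 0, with probe means of 2.84 or less. Probe A_54_P2843 of miR-503-5p has a mean of 14.6 on array 1 and 3.32 on array 2.

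**Figure D2:**
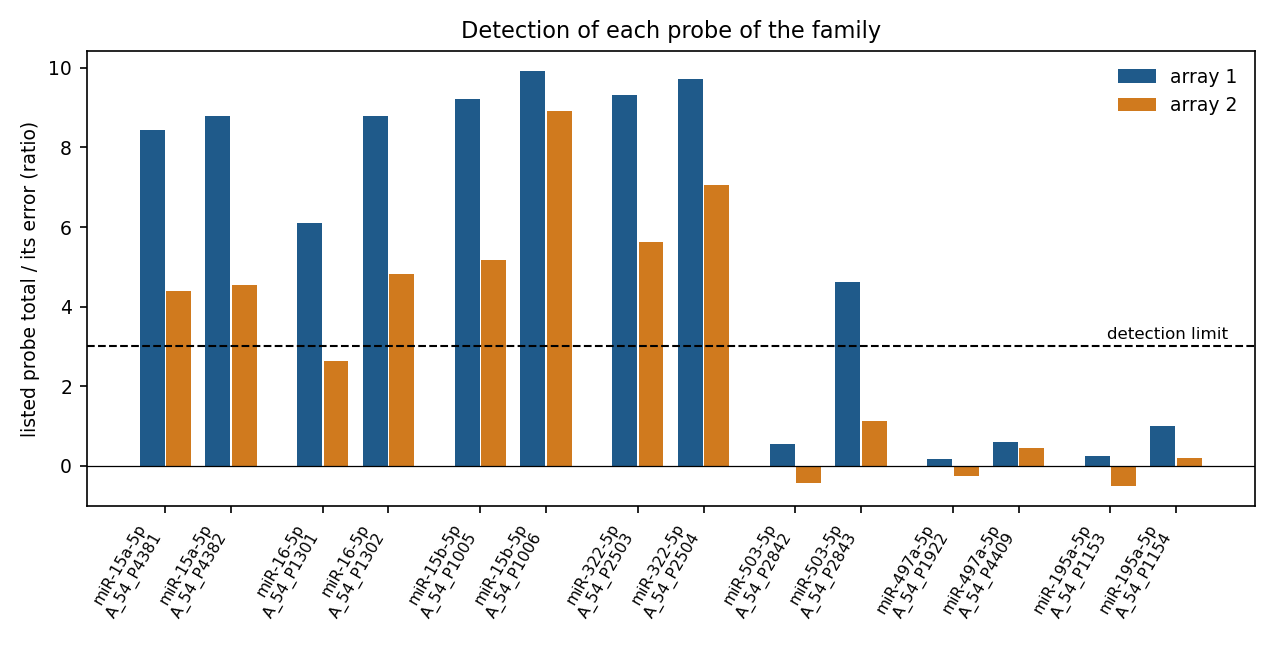
Ratio of each probe's listed total signal to its error (y axis) on array 1 (blue bars) and array 2 (orange bars), with a dashed line at the detection limit of 3. Bars reach 9.91 for miR-15b-5p on array 1, the dimmer probe of miR-16-5p falls to 2.62 on array 2, and the 4 probes of miR-497a-5p and miR-195a-5p reach at most 1.00455.

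The level of a miRNA was taken as the sum of the mean intensities of its own probes. For miR-15b-5p this sum was 281 on array 1 and 74.7 on array 2, a 3.76-fold difference. For miR-322-5p it was 193 and 49.0, a 3.93-fold difference. For miR-15a-5p it was 97.7 and 29.3 (3.33-fold), and for miR-16-5p 73.7 and 23.9 (3.09-fold). All 4 members detected on both arrays were therefore brighter on array 1, by a similar factor. On the log2 scale the differences, array 1 minus array 2, were 1.63 for miR-16-5p, 1.74 for miR-15a-5p, 1.91 for miR-15b-5p and 1.97 for miR-322-5p, with a median of 1.82.

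These differences lay in the upper part of those of all miRNAs. Over the 201 miRNAs detected on both arrays the median log2 difference was 0.758 (interquartile range 0.182 to 1.63), and 176 were brighter on array 1. Between the lowest and the highest member difference lay 27 of the 201 miRNAs (13.4%), the members included. Among the 61 other detected miRNAs of similar brightness, with a mean log2 sum of 5.39 to 7.18, the median was 1.42 (interquartile range 0.437 to 2.0), so the members lay within the interquartile range of this set. For the 4 control names starting with dmr that were detected, array 1 was brighter by 0.06 to 0.16 log2 units. The part of the amount of exosome RNA, of its labelling or of the array in the difference was not tested. Whether array 2 received less RNA is not known, and if it did, fewer vesicles and less RNA per vesicle could not be told apart.

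The probe pairs moved together. The log2 difference of the individual probes was 1.64 and 1.82 for miR-15a-5p, 1.94 and 1.90 for miR-15b-5p, 1.89 and 2.03 for miR-322-5p, and 1.46 and 1.70 for miR-16-5p, where the first probe was not detected on array 2. Within miR-322-5p the brighter probe exceeded the dimmer one 1.61-fold on array 1 and 1.47-fold on array 2. For miR-16-5p these factors were 2.39 and 2.02, and for miR-15a-5p 1.19 and 1.05.

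Each array was then scaled by its 75th percentile over the 201 jointly detected miRNAs, which removed 1.48 log2 units between them. Scaled log2 levels were 7.18 ± 0.31 for miR-15b-5p, 6.60 ± 0.35 for miR-322-5p, 5.74 ± 0.18 for miR-15a-5p and 5.39 ± 0.10 for miR-16-5p (SD, n = 2). All 4 still lay higher on array 1, by 0.15 to 0.49. How close the arrays came depended on the scaling. With this percentile the median SD was 0.243 for the members and 0.555 for the 201 miRNAs, whose median log2 difference became -0.72, and 0 of 4 members and 84 of 201 miRNAs were more than 2-fold apart. With the percentile taken over all 1881 miRNAs the order turned: the median SD was 0.774 for the members and 0.449 for the 201, whose median difference was 0.03, and 3 of 4 members and 55 of 201 miRNAs were more than 2-fold apart. The members are therefore not called more or less repeatable than the rest. Before scaling the SDs of the members were 1.15 to 1.40.

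**Figure D3:**
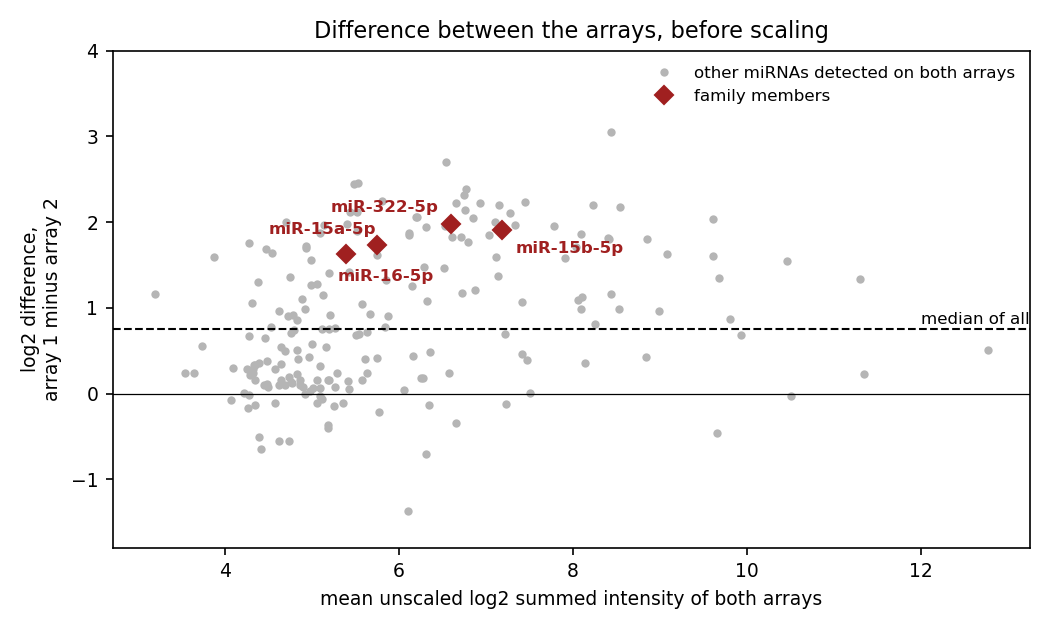
Log2 difference between the arrays before scaling (y axis, array 1 minus array 2) against the mean unscaled log2 summed intensity (x axis) for the 201 miRNAs detected on both arrays, with the 4 family members as red diamonds and the median of all as a dashed line at 0.758. The members lie between 1.63 and 1.97, above the dashed line and among other miRNAs of similar brightness.

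The difference between the arrays bears on miR-503-5p, whose detection they did not share. Its brighter probe had a total signal of 3.1 on array 1 and of 0.704 ± 0.623 (the scanner's error of the total) on array 2. There the limit, 3 times that error, was 1.87. Divided by the median factor of the other detected members, 3.54, the total of array 1 would be 0.876, also below that limit. A total of more than 6.62 on array 1 would have been needed to reach it, because the listed error, and so the limit, rises with the signal. At this signal array 2 could not show whether miR-503-5p was present at the same relative level, and the log2 difference of 2.14 between the probe's means carries the error of a signal near background.

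The opposite arms of the members' hairpins, which are usually discarded, were mostly not detected. Of these 8 arms 0 passed on both arrays and 1 on array 1 only, where the shares of all miRNAs were 10.7% and 5.9%, and in a list this short such counts do not set the arms apart. The 8 had summed intensities of 78.7 on array 1 and 4.99 on array 2. The detected arm was miR-195a-3p, whose best probe reached 4.0 times its error on array 1 and 0.876 on array 2, while miR-195a-5p from the same hairpin was detected on neither array. miR-15a-3p came closest to the limit among the others, at 2.43 times its error on array 1. The arms miR-322-3p, miR-497a-3p and miR-503-3p had highest ratios of -0.02, -0.05 and 0.09 on array 1.

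The X chromosome pair belongs to a group of 7 hairpins that spans 6320 bases with miR-351, miR-542 and miR-450. Of the 9 other mature miRNAs of this group 0 were detected on both arrays and 2 on array 1 only, beside the same shares of 10.7% and 5.9%, which does not set this short list apart either. The 2 were miR-542-5p, at 4.05 times its error on array 1 and 0.538 on array 2, and miR-450a-2-3p, at 4.06 and 2.996, the latter just short of the limit. miR-351-5p, a member of the miR-125 seed family, had ratios of 1.20 and 0.959.

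Relatives by sequence were sought as other mouse miRNAs with AGCAGC at bases 1 to 6 or 2 to 7. The table held 6, all on the array, of which 1 was detected on both arrays and 1 on array 1 only. The shares of all miRNAs were 10.7% and 5.9%, and 83.4% for detection on neither array, which does not set this short list apart. The detected relatives are closely related miRNAs, a pair known for its role in insulin signalling. They have the same letters 1 base nearer to the 5′ end and are printed to show that shift.
miR-103-3p: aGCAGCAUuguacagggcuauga
miR-107-3p: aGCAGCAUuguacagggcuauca
Capitals again mark bases 2 to 8. miR-103-3p had summed intensities of 69.8 on array 1 and 17.8 on array 2, a log2 difference of 1.97, and a scaled log2 level of 5.14 ± 0.35 (SD, n = 2). miR-107-3p had 30.3 and 6.72 and reached 6.44 times its error on array 1 and 1.58 on array 2. The remaining 4, which share AGCAGCA at bases 2 to 8 with the family, were detected on neither array. These are miR-195b, miR-6342, miR-6353 and miR-6419, with highest ratios of -0.48, 0.0686, 0.628 and 0.0229 on array 1. miR-6353 shares its first 12 bases with miR-16-5p, and miR-195b shares its first 16 with miR-195a-5p. miR-497b, whose hairpin overlaps miR-497a-5p on the opposite strand, had a ratio of -0.62 on array 1.

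**Figure D4:**
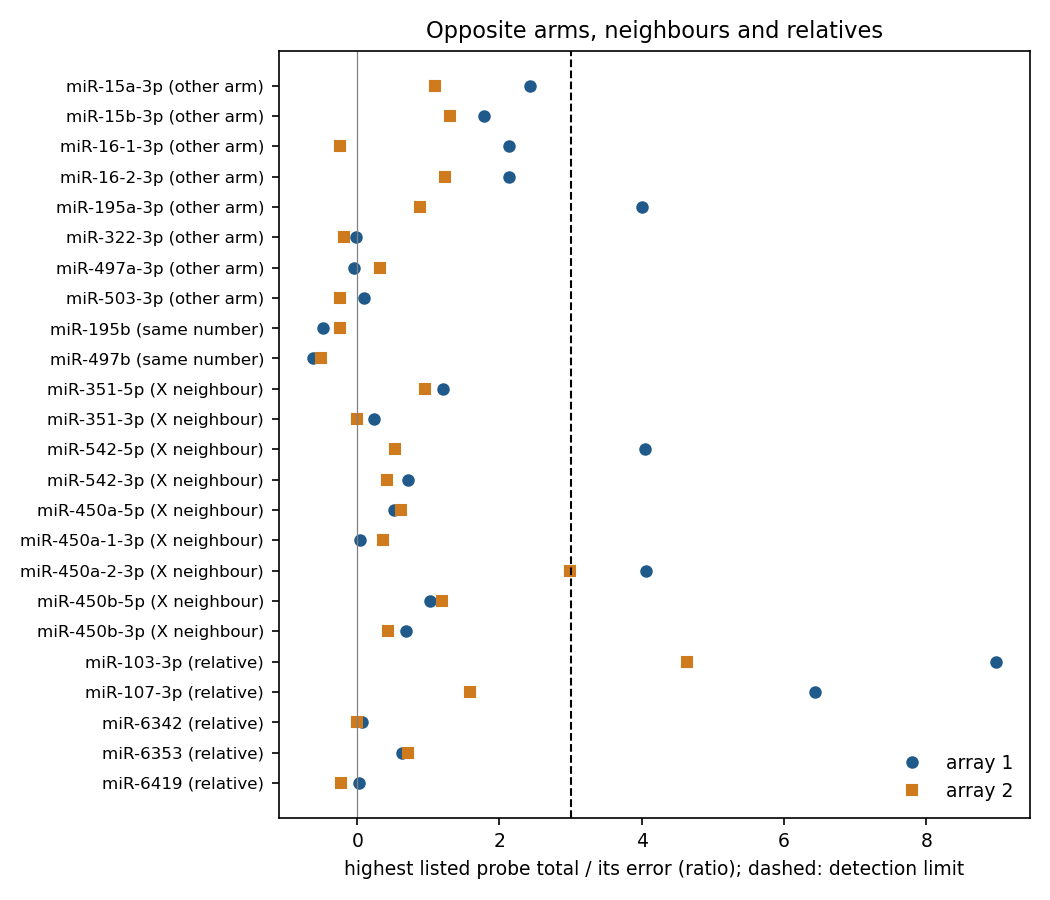
Highest ratio of a probe's total to its error (x axis) on array 1 (blue circles) and array 2 (orange squares) for the opposite arms, same-numbered miRNAs, X chromosome neighbours and sequence relatives, with the detection limit of 3 dashed. miR-103-3p is the only one past the limit on both arrays, at 8.97 and 4.64, and miR-195a-3p, miR-542-5p, miR-450a-2-3p and miR-107-3p pass it on array 1 only.

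The scanner files also list a total for each miRNA, which did not equal the sum of a member's own detected probes in every case. It agreed within 1% for miR-15a-5p, miR-15b-5p and miR-322-5p on both arrays and for miR-16-5p on array 1. For miR-503-5p on array 1 the listed total was 1773, whereas its own detected probe gave 3.1. The detected name just before it in alphabetical order, miR-494-3p, had 1770, and the sum of both was 1773. For miR-16-5p on array 2 the listed total was 19.2 and its own detected probe gave 3.39. There the name before it was miR-15b-5p with 15.8, and the sum was 19.2. By the listed totals miR-16-5p would be dimmer on array 1 than on array 2, at a log2 difference of -0.30, where its own probes gave 1.63. miR-195a-3p on array 1, listed at 215 with an own total of 2.60, showed the same sum with miR-1949.

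The authors' deposited value table is on a log2 scale whose centring stays unknown. In it the 4 members detected on both arrays kept the order of their own probe sums on each array. The table gave 5.03 on array 1 and 4.62 on array 2 for miR-15b-5p, 4.40 and 3.97 for miR-322-5p, 3.60 and 3.03 for miR-15a-5p and 3.30 and 2.32 for miR-16-5p. For miR-503-5p the authors' deposited table gave -1.24 on array 1 and the table's lowest value, -3.32, on array 2. miR-195a-5p and miR-497a-5p stood at -3.32 on both. The 4 members detected on both arrays remained higher on array 1 in this table.

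The miRNAs with the most similar pair of signals were sought for each detected member, as the 3 nearest of the 201 by Euclidean distance over the unscaled log2 sums of both samples. Nearest to miR-15a-5p was miR-214-3p (distance 0.087), nearest to miR-15b-5p miR-199a-3p (0.125), nearest to miR-16-5p miR-3547-5p (0.156) and nearest to miR-322-5p miR-34b-5p (0.10). The next were miR-22-3p and miR-106b-5p for miR-15a-5p, miR-24-3p and miR-130a-3p for miR-15b-5p, miR-466h-5p and miR-106b-5p for miR-16-5p, and miR-34c-5p and miR-27a-3p for miR-322-5p. No family member was among the 3 nearest of another. With 2 samples and probes of unequal brightness, these distances describe signals and not amounts.

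The arrays shared a slide and a scan, and 0 spots were saturated. Array 1 detected 312 miRNAs and array 2 detected 202. Of miRNAs used as cell type markers, 0 of 4 red cell, 0 of 4 leukocyte and 0 of 6 epithelial markers were detected on both arrays. With 10.7% of all miRNAs detected, 0 in lists this short is near the background and says little about these cell types. The line is itself a carcinoma, so the epithelial list is not one of other cells. The summed intensity of the red cell list, relevant because red cells are rich in miR-16, was 16.4 on array 1 and 6.40 on array 2, with the defining miR-451a at 3.16 and 1.33 and miR-486a-5p, which made up most of the sum, at 12.4 and 5.42 and below the limit on both. That of the leukocyte list was 55.1 and 19.1, with miR-142a-3p, detected on array 1 only, at 39.9 and 9.54. The largest part on array 2 came from miR-223-3p, at 14.8 and 12.8 and below the limit on both. The summed intensity of the epithelial list was -2.91 and 3.21. In it miR-200a-3p, miR-200b-3p, miR-200c-3p and miR-141-3p were at 0.235 or less. miR-429-3p was at 2.75 and 2.77 and miR-205-5p at 4.96 and 6.22, and no miRNA of this list was detected.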

How the data were processed

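RNA of 2 exosome samples was hybridised to Agilent mouse miRNA arrays in 1 colour (Cy3). Deposited scanner files give linear spot intensities from Agilent Feature Extraction 10.7.1.1, background-subtracted and detrended within each array, per the file headers. The table of values the authors deposited is in log2, by an unstated scaling. The labels' protocols describe cRNA labelling, whereas the file headers name a miRNA protocol. The labels give the groups.

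Members were matched by name among non-control spots, and population outliers (5 member spots on array 1 and 3 on array 2) were left out. Levels are log2 of the summed probe means, with sums under 1 set to 1, scaled to the 75th percentile. Named miRNAs are the members, their opposite arms, neighbours, sequence relatives, the 3 nearest miRNAs per member and the marker lists. Members and lists were chosen with earlier results of these data known. With 1 group nothing was tested between conditions. Alternatives concerned the detection rule, probe summary, outliers, background and scaling. Python 3.11.15, numpy 2.4.6, pandas 2.3.3, and matplotlib 3.10.9, and limma 3.58.1 in R 4.3.3 for normexp, were used. On simulated arrays of 1881 miRNAs, where every expressed miRNA had the same shift between the arrays, 4 of 4 checks passed. In the real arrays the shift differed between miRNAs, so these checks cover the code and not the choice of scaling.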

Additional observations from a re-analysis of the deposited data

How the results depend on the processing

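No paired analysis was possible because there is 1 group. Of the 7 members, 2 were detected on both arrays (miR-15b-5p and miR-322-5p) when over 50% of a miRNA's spots had to carry the scanner's flag for a signal well above background (4.68% of all miRNAs), and the same 2 at 6 times the error (4.52%). The count was 3 when both probes were required (6.17% of all), 4 with a mean over the negative controls by 3 SD (10.0%), 5 for at least 1 array (16.6%), and 4 to 5 with each array alone. The median scaled log2 level, 6.17, lay between 5.98 and 6.36 with each array alone. It was 5.14 as a mean of log2 spots, 3.93 from listed probe totals (all or detected probes alike), 5.36 from the brightest probe, 7.64 with normexp and an offset of 50, 6.60 over the 3 members with both probes detected, 3.75 in the authors' table and 4.24 from the totals listed per miRNA, an alternative chosen after seeing the data. These are different units, not changes in amount. The median log2 difference between the arrays, 1.82 unscaled, was 0.73 with normexp, 1.09 scaled over all miRNAs, 0.65 after quantile normalization, 0.50 in the authors' table and 0.34 scaled over detected miRNAs. In 11 of 12 settings the difference between the arrays of each of the 4 members lay above the median difference of all detected miRNAs. The exception was the total listed per miRNA, where the difference of miR-16-5p turned to -0.30. The 12 settings are not independent. Scaling by a percentile shifts every difference alike and could not change this position. Listed totals of all own probes gave the same median differences as the probe means. Signal over background limits miR-503-5p, miR-195a-5p and miR-497a-5p to bounds.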
